A study of Ovis aries with 18 samples.

Results

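The genes described are 9 epithelial keratin and desmosome genes: the simple keratins KRT8, KRT18 and KRT19, the plakophilin PKP2, the linker desmoplakin (DSP), the desmosomal cadherins DSG2 and DSC2, plakoglobin (JUP) and PERP. They were selected on measured values, since KRT8 and PKP2 had the highest read count of all genes in some embryo pools and the others are their partners in filaments and junctions. All 9 were among the 20092 genes counted, and all 9 were among the 16488 genes tested, for which 15 or more counts were required in over 3 pools. What chose KRT8 and PKP2, their counts in those pools, is given below as a description and supports no test. Where a p or FDR is printed for KRT8 or PKP2 from a fit that holds those pools, it is a description too. The same holds for their place in a tally of the 9 genes.

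The study asked whether methionine given to rams alters the sperm and the embryos they sire. In sheep, 3 Polypay rams (Ram410, Ram423 and Ram444) received a basal diet as controls, and 3 rams (Ram424, Ram498 and Ram511) received that diet topped with rumen-protected methionine (1.5 g, or 0.22%). The rams were bred to superovulated ewes, and blastocysts flushed from the uterus were combined into 12 pools of 5 embryos, so that a value is an average over embryos and no single embryo can be seen. There were 2 pools from each control ram, 4 from Ram424, and 1 each from Ram498 and Ram511. Pools from one ram have their sire, and often their dam, in common, so sire and dam cannot be told apart and these pools are not independent of each other. Total gene counts ranged from 1326354 to 1554651 in the control pools other than Embryo444_2, which had 1173289. In the methionine pools they ranged from 1508599 to 2398589, apart from Embryo511_1 with 1017847. The RNA was amplified and no molecular identifiers were used, so reads do not stand for separate molecules and the intervals given cover counting error only.

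Keratins are intermediate filament proteins that assemble as pairs of a type I and a type II chain, and KRT8 with KRT18 is the pair of simple epithelia, including the trophectoderm, the outer epithelium of the blastocyst. Desmosomes are the junctions that anchor these filaments at the cell surface: cadherins of the desmoglein and desmocollin families bridge neighbouring cells, plakoglobin and plakophilins bind the cadherin tails, and desmoplakin ties the complex to keratin. In the preimplantation embryo, desmosomes are known to form in the trophectoderm as the blastocyst cavity appears.

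The pools Embryo444_2 (control) and Embryo511_1 (methionine) stood apart from the rest. The Spearman correlation of log2 expression with the other pools had a median of 0.582 for Embryo444_2 and 0.600 for Embryo511_1. In the other 10 pools this median ranged from 0.820 to 0.857. The correlation between any pair of those 10 pools lay between 0.806 and 0.955, the highest value being that of Embryo424_1 with Embryo424_2. The counts of this pair had a chi-square of 3.31 per degree of freedom, which takes reads as separate molecules, so no difference is read from it. Comparisons between diets and between sires are therefore given with and without Embryo444_2 and Embryo511_1, and relations between genes over the other 10 pools. Levels below are CPM values scaled by TMM (trimmed mean of M-values), and because transcript lengths were not used here, levels are compared between pools and not between genes. Where a gene is named the most abundant of a list, this is by mean CPM over 12 pools and not per length.

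KRT8, the type II chain, was the gene with the highest count in Embryo410_2 (13143 counts), Embryo424_3 (15371) and Embryo424_4 (24131). In the other 7 pools that did not stand apart it ranked between 2 and 4 among all genes. Its level was 5474 and 9308 CPM in the pools of Ram410, 8881 and 7268 CPM in those of Ram423, and 3893 CPM in Embryo444_1. All 5 of these control values lay within 2.39-fold of each other. In the methionine group the level was 4789, 5088, 10849 and 11862 CPM in the 4 pools of Ram424 and 5352 CPM in Embryo498_1. The groups overlapped, and the lowest and highest of these methionine pools, 2.48-fold apart, were both of Ram424. In Embryo444_2 and Embryo511_1, by contrast, KRT8 was at rank 1312 with 164 counts (95% exact Poisson interval 139.9 to 191.1) and at rank 7211 with 43 counts (31.1 to 57.9). These are 116 and 42.6 CPM, which is 54.9-fold and 149-fold below the median of 6371 CPM over the other 10 pools.

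KRT18, the type I partner of KRT8, followed the same division of pools. Its level was 1252 and 1960 CPM for Ram410, 1835 and 1703 for Ram423 and 696 CPM in Embryo444_1 among the controls. Among the methionine pools it was 1393, 1149, 2219 and 1775 CPM for Ram424 and 1242 CPM in Embryo498_1. Embryo444_1 was the lowest of these 10 pools for both chains, and the groups overlapped. Embryo444_2 held 20 KRT18 counts (12.2 to 30.9) and Embryo511_1 held 35 (24.4 to 48.7), which is 109-fold and 44.6-fold below the median of 1548 CPM. Counts this low lie within the range of 15 to 116 counts seen in Embryo444_2, and of 1 to 73 seen in Embryo511_1, over 17 other keratins. KRT8 and KRT18 both have processed pseudogene copies in mammals, which may affect their counts in a direction not tested here. Whether counting used strand is not given in the sources used here.

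The count of KRT8 per count of KRT18 ranged from 3.44 in Embryo424_1 to 6.68 in Embryo424_4 over the 10 pools, with a median of 4.59. It was 8.20 in Embryo444_2 and 1.23 in Embryo511_1, where it rests on 20 and 35 counts of KRT18. Across the 10 pools, log2 levels of KRT8 and KRT18 had a Pearson's r of 0.888 and a Spearman's rho of 0.855. No p is given, since the counts that chose KRT8 are in 3 of these pools. Without the 2 pools farthest from the median of KRT8, r was 0.909. No pooled r over all 12 pools is given, because Embryo444_2 and Embryo511_1 form a cluster of their own with too few pools to test. KRT8 and KRT18 are direct neighbours in the RefSeq annotation of the ARS-UI_Ramb v3.0 assembly, with 0 protein-coding genes between them.

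KRT19, a type I keratin without the usual tail domain, was counted only 11 to 85 times per pool, which is within the range of 9 to 130 counts of the 17 other keratins in the 10 pools. In the control pools its level was 26.3 and 59.5 CPM for Ram410, 23.6 and 54.5 CPM for Ram423, 17.0 CPM in Embryo444_1 and 8.49 CPM in Embryo444_2. In the methionine pools it was 8.60, 6.23, 14.1 and 16.7 CPM for Ram424, 12.6 CPM in Embryo498_1 and 18.8 CPM in Embryo511_1. All 5 control pools other than Embryo444_2 were above all 5 methionine pools other than Embryo511_1, while over 12 pools the groups overlapped. The margin was narrow, since Embryo444_1 with 17.0 CPM stood next to Embryo424_4 with 16.7 CPM, and both pools of a control ram differed by over 2-fold for Ram410 and Ram423. Unlike KRT8 and KRT18, KRT19 was not low in both pools that stood apart: its ratio to the median of the 10 pools was −0.99 in Embryo444_2 and 0.16 in Embryo511_1 on the log2 scale.

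PKP2, an armadillo protein of the desmosomal plaque, was the gene with the highest count in Embryo511_1. It held 5117 counts there (4978 to 5259), or 0.503% of that pool's counts (95% Wilson interval 0.489% to 0.517%), and the level was 5073 CPM. In the other 11 pools PKP2 held 63 to 202 counts and ranked between 2185 and 6297. The control pools ranged from 47.4 to 74.4 CPM with a median of 58.8 CPM, Embryo444_2 included at 56.6 CPM. The remaining methionine pools were at 94.6, 114, 79.8 and 67.8 CPM for Ram424 and 61.4 CPM in Embryo498_1. The level in Embryo511_1 was thus 73.2-fold above the median of 69.3 CPM over the 10 pools, and Embryo511_1 is the single pool of Ram511, so ram and pool cannot be told apart.

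The genes beside PKP2 were not high to a like degree. In the same annotation, its neighbours SYT10, YARS2, DNM1L and FGD4 were at 19.8, 16.9, 24.8 and 84.3 CPM in Embryo511_1, against at most 15.6 CPM for SYT10 and ranges of 17.9 to 40.6, 60.8 to 109 and 63.2 to 115 CPM for the others in the 10 pools. SYT10 was thus above its range, at 1.49-fold the median, and YARS2 and DNM1L were below theirs. Its partners in the plaque were not raised either, as described for DSP and JUP below. PKP4, a relative of the plakophilins at cell contacts, held 503 counts in Embryo511_1 and 94 to 215 in the 10 pools, a ratio of 2.45 on the log2 scale. Among the 8 most counted genes of Embryo511_1, those other than PKP2 were CC2D1A, DDX47, ARFGEF2, TALDO1, ACIN1, CD22 and POLM, at 75.2-fold, 34.2-fold, 10.2-fold, 0.273-fold, 10.5-fold, 42.6-fold and 54.0-fold the median level of the 10 pools. All but TALDO1 were thus above that median. Of the 16488 genes, 4.89% were at least 4-fold higher in Embryo511_1 than the median of the 10 pools, and PKP2 was 1 of the 9 genes described here to be so.

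**Figure D1:**
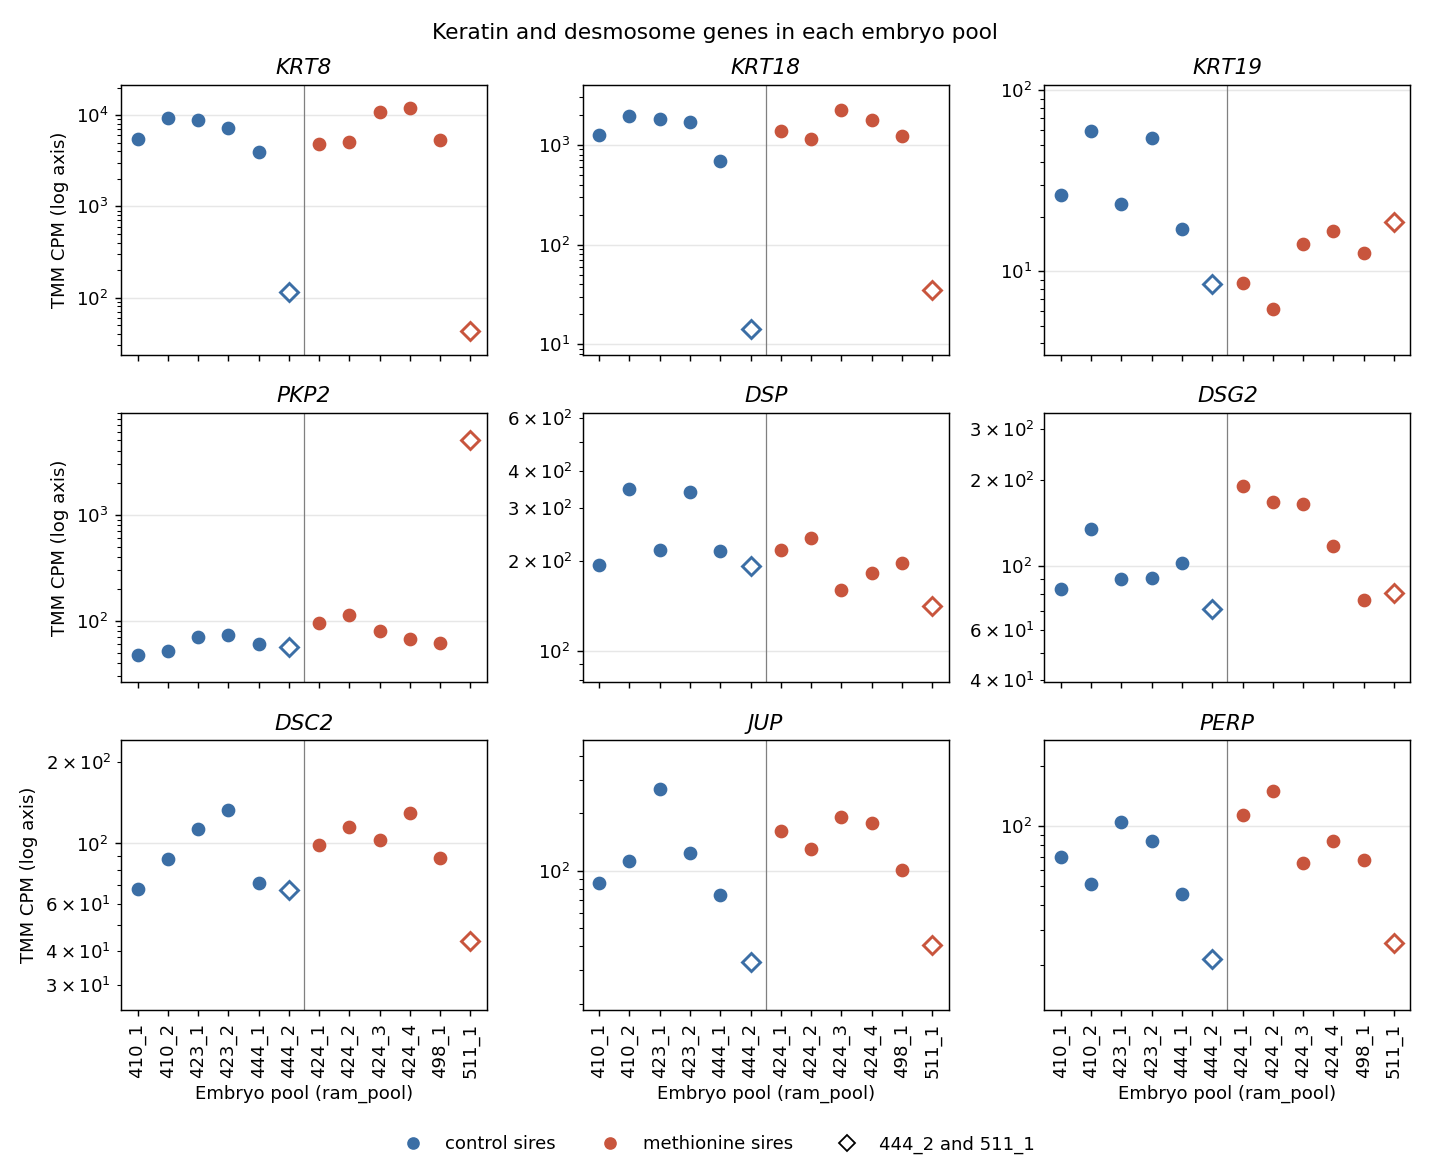
Level of each of the 9 genes in each of the 12 embryo pools, as TMM-scaled CPM on a log axis whose range differs between panels, with control sires in blue, methionine sires in red and Embryo444_2 and Embryo511_1 as open diamonds. KRT8 and KRT18 are far below the other 10 pools in both open diamonds, and PKP2 is at 5073 CPM in Embryo511_1 against 47.4 to 114 CPM elsewhere.

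DSP, which links the plaque to keratin filaments, did not follow the division of pools seen for KRT8 and KRT18. Its level in the control pools ranged from 192 to 348 CPM with a median of 216 CPM, and in the methionine pools from 141 to 239 CPM with a median of 190 CPM. The highest values were those of Embryo410_2 (348 CPM) and Embryo423_2 (341 CPM), and the lowest was that of Embryo511_1. Embryo444_2, at 192 CPM, lay inside the range of the 10 pools, although KRT8 and KRT18 were far below it in the same pool.

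The cadherins DSG2 and DSC2, a desmoglein and a desmocollin, lay in the same gene cluster of the annotation with DSC1, DSG3, DSG4 and DSG1 between them. DSG2 ranged from 70.8 to 135 CPM (median 90.6) in the control pools and from 76.5 to 190 CPM (median 141) in the methionine pools. Its 3 highest values were those of Embryo424_1, Embryo424_2 and Embryo424_3 with 190, 168 and 164 CPM, and the methionine pools of the other rams, Embryo498_1 and Embryo511_1, were at 76.5 and 80.3 CPM, below all control pools except Embryo444_2. The higher values of the methionine group were therefore those of Ram424. DSC2 ranged from 67.3 to 133 CPM (median 79.7) in the control pools and from 43.6 to 130 CPM (median 101) in the methionine pools. Embryo423_2 was the highest and Embryo511_1 the lowest pool, and the groups overlapped throughout.

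JUP, the armadillo protein shared by desmosomes and adherens junctions, ranged from 33.3 to 268 CPM (median 98.8) in the control pools and from 40.6 to 191 CPM (median 146) in the methionine pools. The highest value came from Embryo423_1, at 268 CPM, while the other pool of Ram423 was at 124 CPM. The lowest values were those of Embryo444_2 and Embryo511_1, 3.82-fold and 3.13-fold below the median of the 10 pools. PERP, a membrane protein of desmosomes known as a target of p53 and p63, ranged from 21.2 to 104 CPM (median 60.5) in the control pools and from 25.8 to 149 CPM (median 75.5) in the methionine pools. Embryo424_2 and Embryo424_1 were highest with 149 and 113 CPM, and Embryo444_2 and Embryo511_1 were lowest, 3.62-fold and 2.98-fold below the median of the 10 pools.

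Set side by side, the pools that stood apart were lowest for most of the 9 genes but to very different degrees. In each of them 2 of the 9 genes, KRT8 and KRT18, were at least 4-fold below the median of the 10 pools, where 8.21% of all tested genes were in Embryo444_2 and 7.96% in Embryo511_1. In each pool 6 of the 9 were below all 10 other pools, against 24.6% of tested genes in Embryo444_2 and 26.6% in Embryo511_1. KRT8, KRT18, DSC2, JUP and PERP were so in both, DSG2 in Embryo444_2 only and DSP in Embryo511_1 only. Scaled by total counts instead of TMM, DSG2 and DSC2 were inside the range in Embryo444_2, which left 4 genes (against 18.2% of tested genes), and DSG2 was also below it in Embryo511_1, which made 7 (against 25.7%). The median log2 ratio of all tested genes was 0.052 in Embryo444_2 and −0.011 in Embryo511_1, or 0.36 and 0.023 with scaling by total counts. Together the 9 genes took 0.521% to 1.42% of the counts of each of the 10 pools, 0.0698% in Embryo444_2 (0.0652% to 0.0747%) and 0.545% in Embryo511_1 (0.531% to 0.560%), where PKP2 made up most of it.

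**Figure D2:**
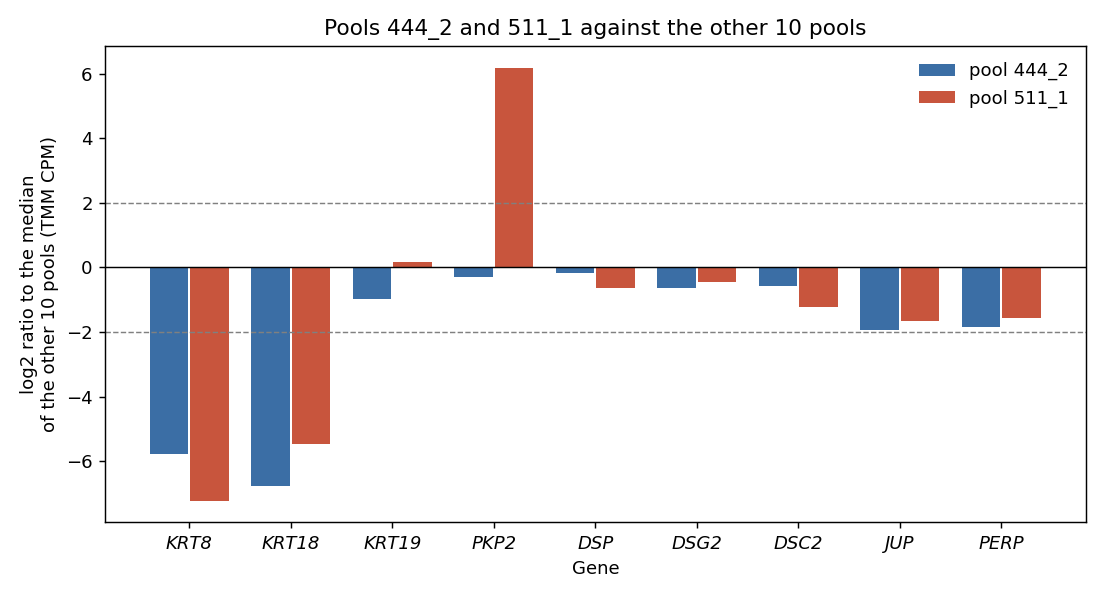
Log2 ratio of the TMM-scaled level of each gene in Embryo444_2 (blue) and Embryo511_1 (red) to its median over the other 10 pools, with dashed lines at 4-fold. The bars of KRT8 (−5.78 and −7.22) and KRT18 (−6.77 and −5.48) pass the lower line in both pools, that of PKP2 (6.19) passes the upper line in Embryo511_1, and the bars of JUP and PERP end inside the lower line.

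Markers of the trophectoderm moved with KRT8 and KRT18. Of 12 listed markers 8 were in the table, and 6 of them were at least 4-fold lower in Embryo444_2 and 7 in Embryo511_1, with a median log2 ratio of −3.04 and −3.06. Their summed level was 3535, 3889, 2964, 4255, 3351 and 147 CPM in the control pools from Embryo410_1 to Embryo444_2. It was 8173, 8350, 6634, 4117, 4089 and 183 CPM in the methionine pools from Embryo424_1 to Embryo511_1. LGALS3, a galectin abundant in this epithelium, was the most abundant of the list with 2066 to 7286 CPM in the 10 pools, and it was at 14.9 and 92.2 CPM in the pools that stood apart. Its mean over 12 pools was 3451 CPM, against 429 CPM for TFAP2C, the next of the list. The summed levels in the 10 pools are therefore mostly LGALS3. The trophectoderm transcription factors CDX2, GATA2 and TFAP2C were counted 4, 6 and 70 times in Embryo444_2 and 8, 4 and 28 times in Embryo511_1, and none of the 8 was at 0. KRT7, which is also one of the 17 other keratins, did not follow, with a log2 ratio of −0.55 and −0.12, nor did DLX3 in Embryo444_2, with 0.076.

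Markers of the inner cell mass and epiblast, of which 7 of 11 were in the table and 5 tested, summed to 484 to 1256 CPM in the 10 pools, to 164 CPM in Embryo444_2 and to 327 CPM in Embryo511_1. SALL4 was the most abundant of them, at 277 to 827 CPM in the 10 pools against 74.3 and 167 CPM, and POU5F1, the pluripotency factor, had a median of 317 CPM in the 10 pools against 14.2 and 39.7 CPM. The list was not low as a whole: PRDM14 was above all 10 pools in both, with a log2 ratio of 0.78 and 1.71, NANOG and TDGF1 lay inside the range, and the median log2 ratio was −0.26 and −0.58. UTF1 and FGF4 were at 0 counts in some pools and were not tested. In the keratin set, the 17 other keratins had a median log2 ratio of 0.17 in Embryo444_2 and 0.46 in Embryo511_1, with KRT1 highest in mean CPM over 12 pools but not in these 2. Of these 17, KRT24 was low in Embryo511_1, at 1 count and a log2 ratio of −4.20, and KRT5 was below all 10 pools in Embryo444_2, with −0.79, and the others were inside the range or above it. Genes outside these lists differed as well: the ribosomal protein gene RPL8 was at 551 CPM in Embryo444_2 against a median of 5107 CPM in the 10 pools, and TALDO1 at 2175 CPM in Embryo511_1 against 7971 CPM. The cumulus and granulosa list had a median log2 ratio of 1.39 in Embryo444_2 and 0.13 in Embryo511_1. Its members went both ways: TNFAIP6 was at 5.83-fold and 4.57-fold the median and FOXL2 at 3.33-fold and 1.72-fold. HAS2 was at 2.06-fold and 0.694-fold, and PTX3 was lower in both, at 0.671-fold and 0.256-fold. The reproductive tract list had a median log2 ratio of 0.56 and 0.18. The part of any of these in the keratin and desmosome values was not tested.

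Among the genes most alike to each gene, chosen by Pearson's r of log2 CPM over all 12 pools, the pools that stood apart set the order, so the likeness over the other 10 pools is given. For KRT8 the 5 genes were ELOVL1 (r of 0.891 over 10 pools), LOC101120208 (0.658), AUP1 (0.692), TAGLN2 (0.917) and WWC1 (0.404). For KRT18 they were TAGLN2 (0.942), SLC7A5 (0.851), AHNAK (0.783), PLLP (0.70) and CRIP1 (0.583). TAGLN2, an actin-binding protein, was the gene that the filament partners had in common, with 654 to 2060 CPM in the 10 pools and 18.4 and 29.7 CPM in Embryo444_2 and Embryo511_1.

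For PKP2 the most alike genes shared its high value in Embryo511_1: LOC101111106 held 1253 counts there, RAB5B 690, SLC30A1 417, PGBD2 238 and SLC6A16 203. Over the other 10 pools r with PKP2 was 0.818 for LOC101111106, 0.629 for RAB5B, 0.145 for SLC30A1, 0.572 for PGBD2 and 0.420 for SLC6A16. The genes most like DSP were low in count, namely LOC105613745, ACKR1, TPP1, LOC101119591 and TM9SF1, with r between 0.820 and 0.885 over 10 pools. Between the 9 genes themselves, p was adjusted over 36 pairs and pools of a ram were permuted as if independent. Of the pairs without KRT8, 0 passed an adjusted p of 0.05 over the 10 pools for r and 0 for rho. The highest r of these was that of PKP2 with PERP, 0.777 (permutation p = 0.0087, adjusted p = 0.156, rho 0.697 with permutation p = 0.0312 and adjusted p = 0.244). Without the 2 pools farthest from the median of PKP2, r with PERP was 0.739. Embryo424_1 and Embryo424_2, both of Ram424, were the 2 highest of the 10 pools for PKP2 and for PERP. How far the r of this pair of genes rests on them was not tested. With DSP, its plaque partner, PKP2 had an r of −0.064 (adjusted p = 0.943 by the permutation test), which does not show that the genes were unrelated.

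To ask whether the paternal diet was associated with these genes, the 6 methionine pools were compared with the 6 control pools by edgeR's quasi-likelihood test with Benjamini-Hochberg adjustment over all tested genes. None of the 9 genes passed an FDR of 0.05, where 0% of the 16488 tested genes did (0 genes, with 1306 at an unadjusted p under 0.05, and 5 genes by the likelihood-ratio test and 16 by DESeq2, none of them among the 9, PKP2 having no p in DESeq2). At an unadjusted p under 0.05 there was 1 of the 9, KRT19, against 7.92% of all tested genes, with PKP2 set aside because its p rests on the count that selected it. Without Embryo444_2 and Embryo511_1, 0 of the 9 passed, where 0.00619% of 16161 genes did, which is 1 gene, MROH5, and 1 of the 9 had an unadjusted p under 0.05, against 11.9%. Both fits hold the counts that chose KRT8, so its part in these tallies is a description. The median log2 fold change of the 9 genes was 0.12 over 12 pools and 0.16 over 10 pools, and that of all tested genes was 0.0051 and −0.030.

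KRT8 and KRT18 had log2 fold changes of 0.12 (standard error 1.16) and 0.066 (0.86) over 12 pools, with FDR of 0.986 and 0.990 in edgeR's quasi-likelihood test. Over 10 pools the estimates were 0.12 (0.38) and 0.055 (0.31), with FDR of 0.930 and 0.964. The counts that chose KRT8 are in both fits, so its FDR values are a description and support no test. The estimates moved little and their standard errors were smaller without the pools that stood apart, of which each diet held 1. Both signs turned when a single pool was left out: KRT8 and KRT18 had −0.10 and −0.16 without Embryo424_3, −0.15 and −0.035 without Embryo424_4 and −0.14 and −0.19 without Embryo444_2, and KRT18 had −0.055 without Embryo444_1. Without Ram424, with Embryo511_1 as 1 of only 2 methionine pools, they were −1.10 and −0.96, and without Ram444 −0.29 and −0.38. The fits without Embryo444_2 or Ram444 keep Embryo511_1, so only the methionine group then holds a pool that stood apart.

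KRT19 had a log2 fold change of −1.31 (standard error 0.44, FDR 0.584 in edgeR's quasi-likelihood test) over 12 pools and −1.64 (0.39, FDR 0.237) over 10 pools. Without Embryo444_2 and Embryo511_1 it passed with DESeq2 (FDR 0.0179, where 0.674% of tested genes passed) and with the likelihood-ratio test of edgeR (FDR 0.0244, where 0.458% passed). It did not pass with ram as random effect in limma (FDR 0.731) or in edgeR on the summed counts of each ram (FDR 0.985), with the same 10 pools. Over all settings its FDR in edgeR, DESeq2 and limma ranged from 0.0179 to nearly 1, and its fold change was negative in each. Groups that do not overlap were found for 1 of the 9 genes over 10 pools, KRT19, and for 1.77% of tested genes, and over 12 pools for 0 of the 9 and 0.352%.

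PKP2 had a log2 fold change of 3.92 (standard error 1.10) over 12 pools, with an FDR of 0.584 in edgeR's quasi-likelihood test, a value that rested on Embryo511_1, the pool for which the gene was selected. Over 10 pools it was 0.44 (0.22), with an FDR of 0.451. The 5 methionine pools of that comparison then ranged from 61.4 to 114 CPM and the 5 control pools from 47.4 to 74.4 CPM, with 3 methionine pools, all of Ram424, above all control pools, and Embryo498_1 inside the control range.

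For the remaining junction genes the estimates lay between −0.41 for DSP (standard error 0.27) and 0.48 for DSG2 (0.27) over 12 pools, with FDR of 0.730 and 0.682 in edgeR's quasi-likelihood test. DSC2, JUP and PERP had 0.099 (0.27), 0.20 (0.43) and 0.43 (0.39). Over 10 pools DSP had −0.41 (0.22), DSG2 0.50 (0.24), DSC2 0.16 (0.22), JUP 0.19 (0.31) and PERP 0.42 (0.28), with FDR from 0.430 to 0.852. Without Ram424, which sired 4 of the 6 methionine pools, DSG2, DSC2, JUP and PERP had −0.28, −0.44, −0.70 and −0.41. That fit holds Embryo498_1 and Embryo511_1 as its only methionine pools, so leaving out Ram424 and the weight of Embryo511_1 cannot be told apart in it. Without Ram444, DSC2 and JUP had −0.060 and −0.14, in a fit that keeps Embryo511_1 but not Embryo444_2.

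**Figure D3:**
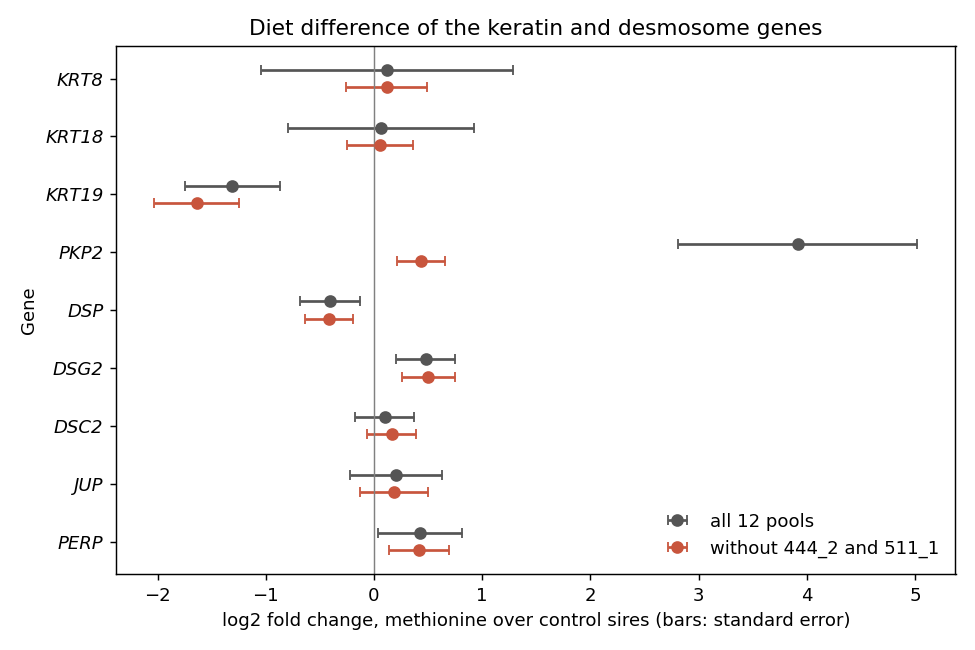
Log2 fold change of each gene in pools of methionine over control sires from edgeR, with bars of 1 standard error, for all 12 pools (grey) and without Embryo444_2 and Embryo511_1 (red). PKP2 moves from 3.92 to 0.44, the errors of KRT8 and KRT18 go from 1.16 and 0.86 to 0.38 and 0.31, and KRT19 is at −1.31 and −1.64.

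Relatives that work with these genes were compared in the same way. Of the other desmosome genes (9 of 10 in the table, DSG4 the most abundant, but DSG3 by the median over 10 pools) 0 passed the FDR in edgeR over 12 or 10 pools. At an unadjusted p under 0.05, 3 of the 9 were lower over 12 pools, and 2 were lower and 1 higher over 10 pools. Of all tested genes, 7.92% had such a p in edgeR's quasi-likelihood test over 12 pools and 11.9% over 10 pools. DSG3 and DSC1 had log2 fold changes of −0.92 and −0.59 over 12 pools and −0.55 and −0.59 over 10 pools, at FDR of 0.584 and 0.585 and then 0.349 and 0.347. PPL, a plakin of the cornified envelope and desmosomes, had the other sign, with 0.47 (FDR 0.698) over 12 pools and 0.68 (FDR 0.354) over 10. The median of the list was −0.032 over 12 pools and −0.38 over 10. The 17 other keratins had medians of −0.14 and −0.16 with 0 passing and 0 at an unadjusted p under 0.05.

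Among 11 tested filament linkers and partners (MACF1 the most abundant), 0 passed, and the median was −0.0065 over 12 pools and −0.13 over 10. FAM83H, which recruits casein kinase to keratin filaments, had a log2 fold change of 1.17 (FDR 0.663 in edgeR) over 12 pools and 1.22 (FDR 0.196) over 10. Like KRT8 it was low in the pools that stood apart, with 79 and 11 counts against 269 to 1555 in the 10 pools. The plakophilin and p120 relatives (2 tested) had medians of 0.49 and 0.034, the adherens partners (4 tested, CDH1 the most abundant) of 0.13 and 0.16, and the p53 and p63 relatives of PERP (4 tested, TP63 the most abundant) of −0.21 and −0.19, with 0 passing in each. The trophectoderm list had medians of 0.28 and 0.39, with 0 passing, and LGALS3 and GATA2 had log2 fold changes of 0.88 and 0.71 over 10 pools at FDR of 0.316 and 0.293.

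To describe how far the genes differed between families of a diet, the rams within each diet were compared by edgeR's quasi-likelihood test. Ram498 and Ram511 had 1 pool each, as did Ram444 and Ram498 over 10 pools, so the spread came from the other rams only. Over 12 pools 1 of the 9 genes passed, PKP2 (FDR 0.000484), where 3.97% of tested genes did. That call rested on the single pool of Ram511, for which PKP2 was selected. JUP, PERP and DSC2 had FDR of 0.0581, 0.0910 and 0.118 in the same edgeR test. Over 10 pools 0 of the 9 passed, where 0.142% of tested genes did, with FDR of 0.387 for JUP and 0.647 for PKP2 in edgeR, and 1677 tested genes at an unadjusted p under 0.05. Among the control rams alone 0 of the 9 and 0 of 14856 genes passed, with 693 at an unadjusted p under 0.05.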

How the data were processed

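Gene expression was measured in 12 pools of 5 embryos. The authors trimmed single-end reads of amplified RNA (bcl2fastq, FastQC and Trimmomatic per the submitters' processing notes), aligned them with STAR to Oar_rambouillet_v1.0 and deposited whole-number read counts per gene. The counts per pool sum to far fewer than the reads the study's methods give. Every column was mapped to a pool by its label (0 were not), and pools were grouped by diet and ram. Genes for which over 3 pools had 15 or more counts were normalized by TMM and tested with edgeR 4.0.16 in R 4.3.3, with limma 3.58.1 and DESeq2 1.42.0 as alternatives. Alternatives also changed size factors, filters, replicates and pools. Relations used log2(CPM + 1) with 100000 permutations in SciPy 1.17.1, two-sided. Standard errors of fold changes were the estimate over the square root of F. Both scripts were tested on simulated data without a ram effect or pools that stood apart. For edgeR the simulated dispersion was also lower than that of these pools. These checks concern the code and not the performance in these data. Named genes were the 9 genes, the 4 most abundant genes of each list and any called, the 5 genes most alike to each of KRT8, KRT18, PKP2 and DSP, and the most counted gene of each pool. CDX2, DLX3, NANOG, KRT5, KRT7, KRT24, RPL8, the most counted genes of Embryo511_1 and those beside PKP2 were named after their values were seen. The members and lists were chosen with earlier results of these data known. Neighbours came from RefSeq (ARS-UI_Ramb v3.0), in which all 9 genes matched. Sperm methylation counts were not used here, since the RefSeq gene positions are of another assembly than the cytosines.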

Additional observations from a re-analysis of the deposited data

Results flagged for a closer look

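In each diet group of 6 pools, the highest and lowest pools were checked for a gap to the nearest pool that was wide against the whole range (Dixon's test), for 24 groups of values, of which 4 stood out; chance alone does so in about 1 of 20, but 3 of the 4 were known beforehand and support no test: PKP2 was selected on its count in Embryo511_1, and the 2 correlations are those by which the pools were set apart. PKP2 stood out in Embryo511_1 with 5073 CPM, against 61.4 to 114 CPM in the other methionine pools. The median Spearman correlation with the other pools was 0.582 in Embryo444_2, against 0.820 to 0.839 in the other control pools. It was 0.600 in Embryo511_1, against 0.833 to 0.857 in the other methionine pools. The count of KRT8 per count of KRT18 was 8.20 in Embryo444_2, on 164 and 20 counts, against 4.27 to 5.59 in the other control pools. These control pools include Embryo410_2, whose count chose KRT8, and Embryo444_2 was already set apart, so this ratio supports no test either.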

How the results depend on the processing

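With the pools of a ram summed, the log2 fold changes of KRT8, KRT18, DSC2 and JUP turned to −0.36, −0.35, −0.11 and −0.13. With the ram as a random effect those of KRT8, KRT18 and DSC2 were −1.23, −0.53 and −0.031. With the pool number as a replicate block, which pairs pools by number only, those of KRT8, KRT18 and JUP were −0.59, −0.36 and −0.13, and 0 genes were called by edgeR (876 at an unadjusted p under 0.05). Leaving out a pool or a ram in turn gave −1.10 to 0.44 for KRT8, −0.96 to 0.42 for KRT18, −1.69 to −1.01 for KRT19, 0.47 to 5.41 for PKP2, −0.57 to −0.29 for DSP, −0.28 to 0.60 for DSG2, −0.44 to 0.40 for DSC2, −0.70 to 0.82 for JUP and −0.41 to 0.85 for PERP, with 0 genes called between diets each time, and 5 to 11 related pairs against 10, the lowest without Embryo511_1. These numbers of pairs come from all 12 pools, or from 11 with a pool left out, so they hold Embryo444_2, Embryo511_1 or both. Those pools form a cluster of their own with too few pools to test. The pairs also include KRT8 and PKP2, whose counts the selection used, so their number is a description. Genes called between diets numbered 5 by the likelihood-ratio test and 16 by DESeq2, and without Embryo444_2 and Embryo511_1 they numbered 1, 1 with RLE size factors, 74 by the likelihood-ratio test and 109 by DESeq2, the last 2 including 1 of the 9 genes, KRT19. Over the same 10 pools 0 were called with the ram as a random effect and 0 with the pools of a ram summed. Genes called between sires numbered 654, with 0 among control rams alone and 23 over 10 pools, and of the 9 genes 0 and 0. Related pairs numbered 1 over 10 pools, with KRT8 in it. The settings without the pools that stood apart were chosen after seeing the data, and the cause of these changes was not tested. The alternatives planned for sperm methylation (coverage, test, window, each ram) were not run. KRT19 was not in the fit that required 15 counts in all 12 pools, and DESeq2 gave no p for PKP2 over 12 pools.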

Other observations

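The most counted gene of the other pools was TALDO1, a pentose phosphate enzyme, in Embryo410_1, Embryo423_1, Embryo423_2 and Embryo498_1, LGALS3 in Embryo424_1 and Embryo424_2, UBR4 in Embryo444_1 and TTN in Embryo444_2, where TTN held 2516 counts against 1624 to 2523 in the 10 pools. The hypoblast list (8 of 10 in the table, GATA6 the most abundant, SOX17 at 0 in some pools) summed to 1148 to 1755 CPM in the 10 pools, 685 CPM in Embryo444_2 and 1017 CPM in Embryo511_1. GATA6 itself was at 249 to 801 CPM in the 10 pools against 38.9 and 66.4 CPM. It was the 1 of 6 tested genes of the list at least 4-fold lower in either pool, and the median log2 ratio was −0.67 and −0.19. The list of ewe reproductive tract epithelium (7 of 12, ESR1 the most abundant, WFDC2 at 0 in some pools) summed to 93.4 to 164 CPM, 207 CPM and 102 CPM. The cumulus and granulosa list (4 of 8, HAS2 the most abundant) summed to 53.6 to 132 CPM, 193 CPM and 92.2 CPM. The leukocyte list (5 of 8, CSF1R the most abundant, TYROBP at 0 in some pools) summed to 135 to 726 CPM, 231 CPM and 368 CPM. The 726 CPM was that of Embryo410_2, and the rest of the 10 pools were at 135 to 197 CPM. PTPRC was at 121 and 254 CPM in Embryo444_2 and Embryo511_1, against 40.2 to 76.5 CPM in the 10 pools. CSF1R, LAPTM5 and CD74 lay inside their ranges in both. By the median over 10 pools PTPRC was above CSF1R. The red cell list (4 of 6, ALAS2 the most abundant, HBM at 0 in some pools) summed to 43.4 to 642 CPM, 55.2 CPM and 41.6 CPM. The epidermis list (9 of 11, TP63 the most abundant, sharing KRT1 and others with the keratin lists) summed to 216 to 348 CPM, 346 CPM and 319 CPM. By edgeR's quasi-likelihood test 0 genes of these lists passed an FDR of 0.05 between diets over 12 or 10 pools, with medians of the log2 fold change over 12 and 10 pools of 0.075 and −0.28 (hypoblast), −0.66 and −0.11 (reproductive tract), −0.29 and −0.14 (cumulus), −0.48 and −0.57 (leukocyte), 0.19 and 0.18 (red cell), −0.098 and −0.14 (epidermis) and 0.029 and −0.030 (inner cell mass and epiblast).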
